A study of Mus musculus with 8 samples.

Results

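The Fos, Jun, Egr and Atf3 transcripts of mouse bone marrow-derived macrophages are described here, as 10 genes of the 34745 in the count table. They are Fos, Fosb, Fosl1, Fosl2, Jun, Junb, Jund, Egr1, Egr2 and Atf3, taken by gene symbol from their Ensembl identifiers by a rule that uses no measured value, in a choice made with earlier results of these data known. Bone marrow cells were grown into macrophages with recombinant mouse M-CSF at 20 ng/ml. KAT8 is a histone acetyltransferase that acts mainly on histone H4, and R848 (resiquimod) is a small imidazoquinoline that mouse macrophages sense through the endosomal receptor TLR7. The 4 groups had 2 poly(A) RNA-seq libraries each: KAT8-deficient macrophages given R848 at 100 ng/ml for 6 h, WT macrophages given the same R848 treatment, untreated KAT8-deficient macrophages and untreated WT macrophages. The titles name the mutant KAT8-cKO, and the labels give neither the Cre driver nor the deleted exons nor an age of the mice. Nothing in them tells whether both libraries of each group are from different mice or dishes. The p-values therefore measure the spread between the libraries alone, which may be technical.

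AP-1 is a dimer of basic leucine zipper (bZIP) proteins. Fos family proteins (Fos, Fosb, Fosl1, Fosl2) need a Jun partner, while Jun family proteins (Jun, Junb, Jund) can pair with Fos proteins or with each other. The dimers bind the sequence TGANTCA or forms of the cAMP response element, searched here as TGACNTCA. Fos, Fosb, Jun, Junb, Egr1, Egr2 and Atf3 are immediate early genes: Toll-like receptor signals reach them through MAP kinases without new protein synthesis, and their short-lived transcripts usually climb and decline early after a stimulus. Fosl1 and Fosl2 tend to follow later, and Jund is largely constitutive. Egr1 and Egr2 are zinc finger factors, and Egr2 takes part in macrophage differentiation. Atf3 is a bZIP protein that limits cytokine transcription after Toll-like receptor signals in mouse macrophages. The deposited data hold a single time after R848, so no earlier peak could be measured.

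The regulatory sequence in front of Fos, Jun and Junb is shown because these 3 genes carry most of the AP-1 differences below. Another reason is that each window holds a match to TGACNTCA or to TGACG, the core of the cAMP response element. Each run is the 250 bases before the RefSeq start (GRCm38.p6), 5′ to 3′ on the gene's strand, with matches to TGACNTCA or to the core TGACG in capitals. The Fos window lies at chr12:85473640-85473889 on the plus strand, the Jun window at chr4:95052223-95052472 on the minus strand and the Junb window at chr8:84978749-84978998 on the minus strand.
Fos: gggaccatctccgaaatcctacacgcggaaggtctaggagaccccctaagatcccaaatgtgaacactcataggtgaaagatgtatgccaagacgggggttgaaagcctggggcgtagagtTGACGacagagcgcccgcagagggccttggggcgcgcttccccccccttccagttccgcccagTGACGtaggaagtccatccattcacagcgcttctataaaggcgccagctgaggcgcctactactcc
Jun: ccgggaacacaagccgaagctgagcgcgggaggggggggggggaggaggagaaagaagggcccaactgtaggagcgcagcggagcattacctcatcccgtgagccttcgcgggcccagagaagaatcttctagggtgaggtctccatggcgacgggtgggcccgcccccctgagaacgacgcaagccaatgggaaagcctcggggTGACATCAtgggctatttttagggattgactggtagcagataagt
Junb: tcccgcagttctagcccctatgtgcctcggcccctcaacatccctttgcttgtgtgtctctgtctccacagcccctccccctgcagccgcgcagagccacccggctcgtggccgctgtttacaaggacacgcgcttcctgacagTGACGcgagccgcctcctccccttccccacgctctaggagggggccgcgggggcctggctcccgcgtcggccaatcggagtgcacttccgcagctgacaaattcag

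The matches in Fos began 129 and 66 bases before the start, and a TATAAA sequence followed at 33 bases. The single Jun match, TGACATCA, which does not hold TGACG, began 45 bases before the start, and the Junb match 106 bases before it. RefSeq windows were found for 8 of the 10 genes (Egr1 and Fosl1 were not matched), and the remaining TGACG matches were in Fosb at 60 bases, in Atf3 at 7 bases on the opposite strand and in Egr2. Egr2 has 5 windows, of which 4 hold a CArG box, the site of serum response factor. Some of these windows overlap, so the same box is counted more than once. Motifs were searched on both strands, and a TGACG inside a TGACNTCA counts for both. Of 32851 promoter windows of 250 bases, 17.8% hold TGACG, 7.49% hold TGACNTCA, 6.75% hold TGANTCA, 12.4% hold TATAAA and 1.47% hold a CArG box. A match is a description of the letters and not of occupancy.

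Libraries held 18550977 to 21384532 counts over genes, and the 2 libraries of a group differed by more than sampling noise. All 10 genes passed the filter on low counts that left 14040 genes for testing. Kat8 itself was at 9.94 and 10.4 CPM (counts scaled to library size) in KAT8-deficient R848 libraries, 18.0 and 16.0 CPM in WT R848 libraries, 8.76 and 10.7 CPM in untreated KAT8-deficient libraries and 17.0 and 17.9 CPM in untreated WT libraries, which goes with the labels but leaves Kat8 counts in the deficient cells. Of 7 macrophage markers, every one was detected, and their sum without Lyz2 was 3209 to 3558 CPM in KAT8-deficient R848 libraries, 3675 to 3988 CPM in WT R848 libraries, 3330 to 3577 CPM in untreated KAT8-deficient libraries and 3646 to 3801 CPM in untreated WT libraries. Lyz2 was lower in every KAT8-deficient library. The sum holds opposite changes by edgeR: under R848, Fcgr1 was higher (log2 1.09) and Adgre1 (-0.41) and Csf1r (-0.39) lower in KAT8-deficient than in WT cells, while with R848 in WT cells Adgre1 and Csf1r rose and Mertk and Fcgr1 fell. The neutrophil list summed to at most 7.04 CPM, with Ly6g at 0 in all 8 libraries, and T cell, mast cell and B cell markers summed to under 1 CPM. The 10 stromal or fibroblast markers were abundant and differed between genotypes, and their values stand beside the results they move with.

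Levels per kilobase of exon were set in order from the mean over the 8 libraries. Atf3 led with a mean of 143 CPM per kb (lowest 128, highest 164), and no other gene reached its range. Jund (84.3), Junb (81.8) and Jun (68.4 CPM per kb) followed, and the ranges of these Jun family neighbours overlapped. Egr2 averaged 22.5 and Fos 17.2 CPM per kb, again with overlapping ranges. Egr1 (9.08), Fosl2 (8.41) and Fosl1 (5.91 CPM per kb) came next, with each neighbour overlapping the one after it. Fosb was last at 0.0617 CPM per kb, with 4 to 12 reads in a library, so the cultures carried abundant Jun family and Atf3 RNA in all 4 groups and almost no Fosb RNA. The comparisons that follow use CPM of each gene and never set genes against each other.

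**Figure D1:**
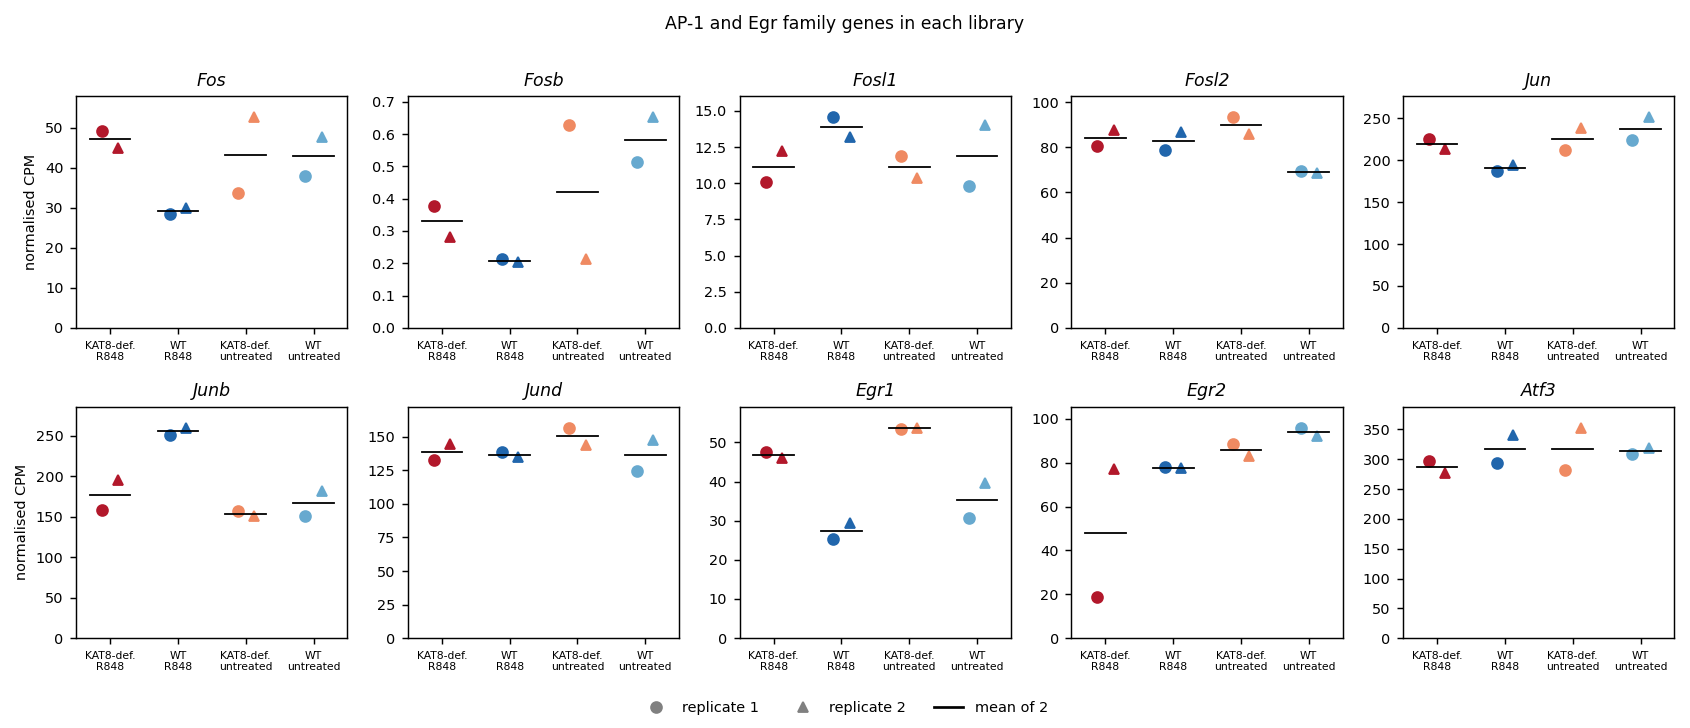
CPM of each gene (vertical axis, own scale per panel, starting at 0) in each of the 8 libraries (points), with group means as bars. Egr1 is higher in both KAT8-deficient groups, Junb is highest in WT R848 libraries at 251 and 260.3 CPM, Fos is lowest in WT R848 libraries, and 1 KAT8-deficient R848 library stands alone for Egr2 at 18.6 CPM.

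Among the Jun family in WT cells, R848 went with more Junb and slightly less Jun at 6 h. Junb (ENSMUSG00000052837, chr8:84974484-84978718, minus strand), whose protein often restrains Jun, had 251 and 260.3 CPM in WT R848 libraries, against 152 and 181 CPM in untreated WT libraries. The groups did not overlap. Junb rose by 0.62 on the log2 scale (SE 0.111, edgeR quasi-likelihood adjusted p = 0.00743, 95% interval 0.37 to 0.87), and this passed the adjusted threshold of 0.05 under all 16 alternatives, including each of the 8 left-out libraries. Jun (ENSMUSG00000052684, chr4:95049034-95052222, minus strand), the family's strongest activator, had 187 and 194 CPM in WT R848 libraries, against 223 and 251 CPM in untreated WT libraries. Both treated libraries lay below both untreated ones. Jun fell by 0.31 on the log2 scale (SE 0.0806, edgeR adjusted p = 0.0349, 95% interval -0.50 to -0.13). The Jun call was lost without WT R848 replicate 1 (edgeR adjusted p = 0.173), WT R848 replicate 2 (0.102) or untreated WT replicate 2 (0.191), and at 0.0545 when only the libraries compared entered the fit. Junb and Jun were the 2 of 10 genes called, beside 13.6% of all genes tested in that comparison (6.94% higher, 6.7% lower).

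The other genes did not pass the threshold in WT cells. Fos (ENSMUSG00000021250, chr12:85473890-85477273, plus strand), the founding Fos protein, had 28.5 and 29.9 CPM in WT R848 libraries, against 38.0 and 47.7 CPM in untreated WT libraries. Its groups did not overlap, but the log2 difference of -0.55 (SE 0.190) had an edgeR adjusted p of 0.0950. Fosl2 was at 0.26 (SE 0.0759, edgeR adjusted p = 0.0527) and Egr1 at -0.36 (SE 0.121, edgeR adjusted p = 0.0878). Fos passed without untreated KAT8-deficient replicate 1 (edgeR adjusted p = 0.0222) or replicate 2 (0.0244), and Egr1 without untreated WT replicate 1 (0.0167). Fosb differed by -1.44 (SE 0.620, edgeR adjusted p = 0.172) at the few reads given above. Jund, Atf3 and Fosl1 lay between 0.01 and 0.22 with intervals that included 0, which for Atf3 ran from -0.23 to 0.27 and for Jund from -0.20 to 0.21. Counting libraries only, 2 genes were above (Fosl2, Junb) and 5 below (Fos, Fosb, Jun, Egr1, Egr2) without overlap, beside 56% of all genes with either pattern. The median over the 10 genes was -0.13 on the log2 scale, and over all genes 0.00.

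In KAT8-deficient cells none of the 10 genes passed the threshold for R848 against untreated cells, beside 0.634% of all genes by the same edgeR test (0.499% higher, 0.135% lower). No member had an unadjusted p under 0.05, beside 13.8% of all genes, and DESeq2 and limma-voom called 0. Junb had 158 and 195 CPM in KAT8-deficient R848 libraries, against 158 and 150.5 CPM in untreated KAT8-deficient libraries. Its log2 difference was 0.20 (edgeR adjusted p = 0.477, 95% interval -0.06 to 0.45). Jun had 226 and 213 CPM in KAT8-deficient R848 libraries, against 213 and 238 CPM in untreated KAT8-deficient libraries, a log2 difference of -0.04 with an interval of -0.22 to 0.14. Fos had 49.1 and 45.0 CPM in KAT8-deficient R848 libraries, against 33.8 and 52.6 CPM in untreated KAT8-deficient libraries, so the untreated pair enclosed the treated pair. The 10 log2 differences ran from -0.84 (Egr2) to 0.20 (Junb), with a median of -0.10, against 0.00 over all genes. Without overlap, 1 gene was above (Junb) and 2 were below (Egr1, Egr2), beside 46.8% of all genes.

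Under R848, KAT8-deficient and WT cells differed in 3 of the 10 genes, Egr1, Fos and Junb, beside 13.6% of all genes tested (8.14% higher, 5.47% lower). Egr1 (ENSMUSG00000038418, chr18:34859823-34864984, plus strand), a zinc finger factor and one of the most rapidly induced immediate early genes, had 47.6 and 46.0 CPM in KAT8-deficient R848 libraries, against 25.3 and 29.3 CPM in WT R848 libraries. It rose by 0.78 on the log2 scale (SE 0.120, edgeR adjusted p = 0.00379, 95% interval 0.50 to 1.05), and passed the threshold under all 16 alternatives. Fos had 49.1 and 45.0 CPM in KAT8-deficient R848 libraries, against 28.5 and 29.9 CPM in WT R848 libraries. It rose by 0.69 (SE 0.189, edgeR adjusted p = 0.0456, 95% interval 0.26 to 1.12). Junb went the other way, with 158 and 195 CPM in KAT8-deficient R848 libraries, against 251 and 260.3 CPM in WT R848 libraries. It fell by 0.54 on the log2 scale (SE 0.111, edgeR adjusted p = 0.0144, 95% interval -0.79 to -0.28). In all 3 genes both KAT8-deficient libraries lay on 1 side of both WT libraries, a pattern also seen in 59.4% of all genes tested.

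The Fos and Junb calls depended on single libraries. Fos no longer passed edgeR's threshold without KAT8-deficient R848 replicate 1 (adjusted p = 0.174) or replicate 2 (0.0862), WT R848 replicate 1 (0.200) or replicate 2 (0.140), or untreated WT replicate 2 (0.0512), nor with robust estimation (0.103) or limma-voom (0.0503). Junb lost it without KAT8-deficient R848 replicate 1 (edgeR adjusted p = 0.0817), WT R848 replicate 1 (0.0681) or WT R848 replicate 2 (0.0778). Both kept their direction under every alternative. Jun had 226 and 213 CPM in KAT8-deficient R848 libraries, against 187 and 194 CPM in WT R848 libraries, a log2 difference of 0.20 that did not pass (edgeR adjusted p = 0.142). Fosl2, Jund and Atf3 were at 0.02, 0.02 and -0.15, and the interval of Atf3 was -0.40 to 0.10. Without overlap, 4 genes were above (Fos, Fosb, Jun, Egr1) and 3 below (Fosl1, Junb, Egr2), beside 59.4% of all genes.

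**Figure D2:**
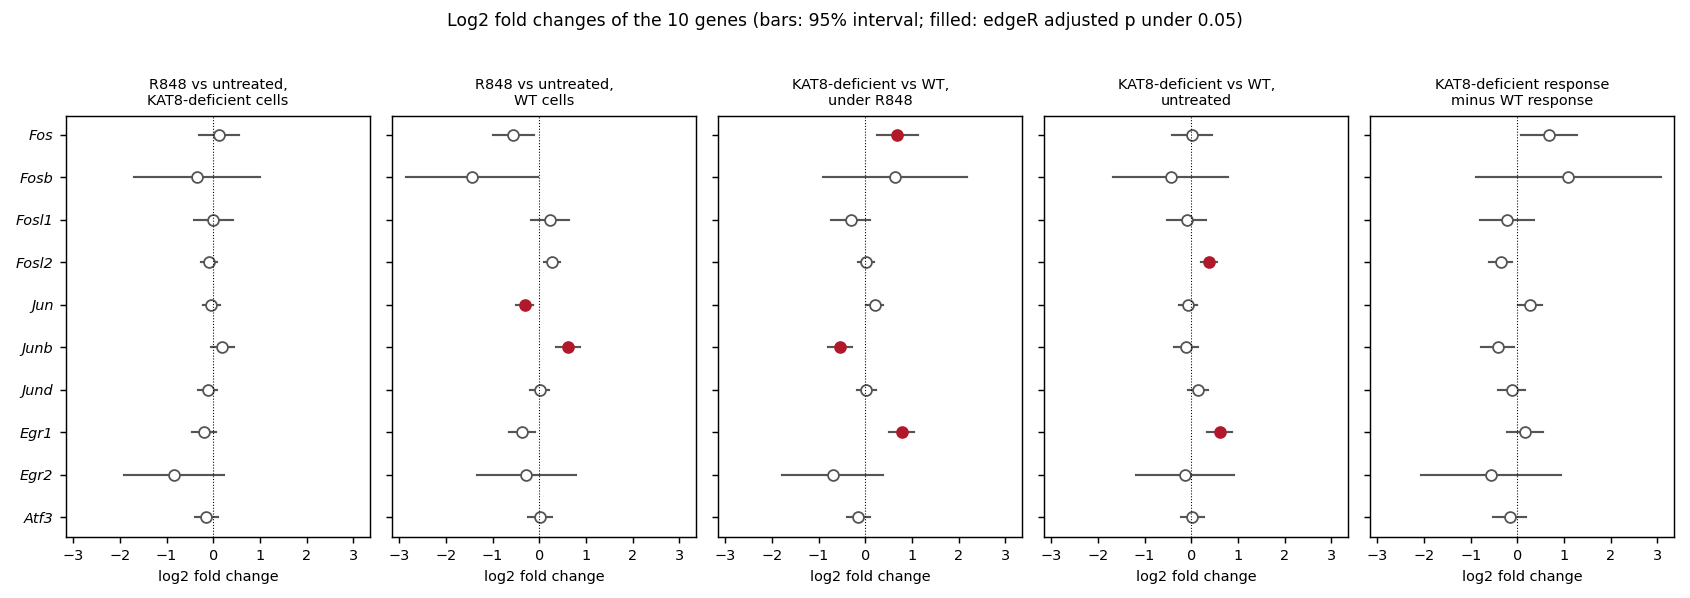
Log2 fold change of each gene in the 4 pairwise comparisons and in the interaction (points, horizontal axis), with 95% intervals from the edgeR fit, not adjusted for multiple testing, as bars. Filled points passed the adjusted threshold: Junb and Jun for R848 in WT cells, Egr1, Fos and Junb for KAT8 deficiency under R848, and Egr1 and Fosl2 in untreated cells.

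Untreated KAT8-deficient cells already carried more Egr1 and Fosl2 RNA than untreated WT cells. Egr1 had 53.6 and 53.8 CPM in untreated KAT8-deficient libraries, against 30.8 and 39.6 CPM in untreated WT libraries, and rose by 0.61 on the log2 scale (SE 0.119, edgeR adjusted p = 0.0284, 95% interval 0.34 to 0.88). All 4 KAT8-deficient libraries thus had more Egr1 than any WT library. Fosl2 (ENSMUSG00000029135, chr5:32135801-32157842, plus strand), which encodes Fra-2, had 93.2 and 86.1 CPM in untreated KAT8-deficient libraries, against 69.4 and 68.5 CPM in untreated WT libraries. It rose by 0.38 (SE 0.0758, edgeR adjusted p = 0.0309, 95% interval 0.21 to 0.55). In R848 cells the genotypes overlapped for Fosl2, at 80.6 and 87.5 CPM in KAT8-deficient R848 libraries and 79.0 and 86.7 CPM in WT R848 libraries. These were 2 of 10 genes, beside 4.27% of all genes (2.91% higher, 1.36% lower).

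The untreated Egr1 call was lost without untreated KAT8-deficient replicate 1 (edgeR adjusted p = 0.156) or replicate 2 (0.120), or without untreated WT replicate 1 (0.109), and at 0.0538 with only the libraries compared. The Fosl2 call was lost without untreated KAT8-deficient replicate 1 (edgeR adjusted p = 0.206) or replicate 2 (0.0778), untreated WT replicate 1 (0.122) or replicate 2 (0.106), or WT R848 replicate 1 (0.0503), and with only the libraries compared. The other 8 genes ran from -0.44 (Fosb) to 0.14 (Jund) in untreated cells, and none passed. Without overlap, 2 genes were above (Egr1, Fosl2) and 1 below (Egr2), beside 50.4% of all genes.

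Stromal marker RNA moved with genotype in the same libraries. The 10 markers, among them the collagen genes Col1a2 and Col3a1, summed to 4042 to 4134 CPM in KAT8-deficient R848 libraries, 2751 to 2956 CPM in WT R848 libraries, 4558 to 4804 CPM in untreated KAT8-deficient libraries and 3275 to 3794 CPM in untreated WT libraries. Under R848, 9 of 10 were higher in KAT8-deficient cells and 0 lower (median log2 0.44), and in untreated cells 8 were higher and 0 lower (median 0.52) by edgeR. Over all genes 8.14% were higher under R848 and 2.91% in untreated cells. Col1a1, a large part of the sum, was called in neither. It had 1145 and 1043 CPM in untreated KAT8-deficient libraries, against 773 and 1157 CPM in untreated WT libraries. With R848, 2 of 10 fell in KAT8-deficient cells (Acta2 and Tagln, median -0.18), beside 0.135% of all genes. In WT cells 5 fell and 1 rose (median -0.33), beside 6.7% and 6.94% of all genes. The groups with the larger sums are also those with the higher Egr1 values, and Fos and Junb in R848 cells differ between the same groups. The part of these cells in the Egr1, Fos, Fosl2 and Junb results was not tested, and in bulk RNA more cells of a type and more RNA per cell cannot be told apart. The 3 endothelial markers summed to 29.0 to 31.4 CPM in KAT8-deficient R848 libraries, 21.1 to 23.2 CPM in WT R848 libraries, 32.2 to 38.4 CPM in untreated KAT8-deficient libraries and 33.8 to 33.9 CPM in untreated WT libraries. Kdr, the endothelial VEGF receptor, was higher in KAT8-deficient than in WT cells under R848 (log2 0.53, edgeR adjusted p = 0.0139) and fell with R848 in WT cells (-0.68, edgeR adjusted p = 0.00435), and its part was not tested either. Kdr made up nearly all of that sum. Cdh5 lay the other way under R848, at 0.801 and 0.849 CPM in KAT8-deficient libraries against 1.87 and 1.53 CPM in WT libraries. Pecam1 was at most 0.163 CPM in any library.

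**Figure D3:**
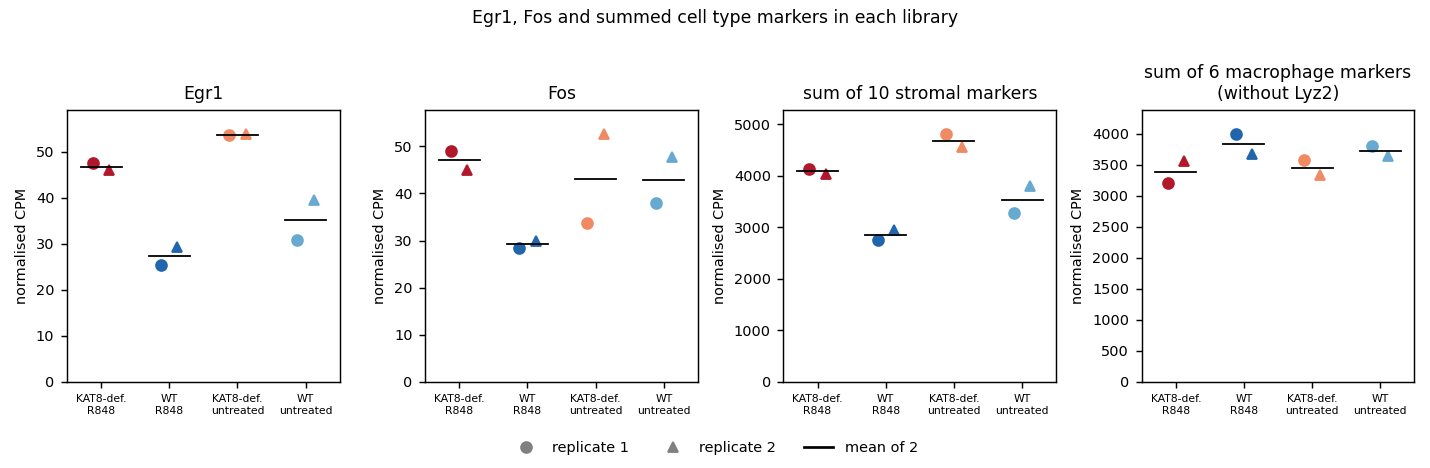
CPM of Egr1 and Fos and summed CPM of the 10 stromal and 6 macrophage markers (without Lyz2) in the 8 libraries (points), with group means as bars and axes starting at 0. The stromal sum and Egr1 are higher in both KAT8-deficient groups than in the WT group of the same treatment, while for Fos the genotypes overlap in untreated cells.

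No member passed the threshold for the interaction, the R848 response of KAT8-deficient cells minus that of WT cells, beside 0.228% of all genes by edgeR (0.057% higher, 0.171% lower). DESeq2 and limma-voom also called 0, while 4 of the 10 (Fosl2, Junb, Fos, Jun) had an unadjusted p under 0.05, beside 11.4% of all genes. Fosl2 came nearest, with an interaction of -0.36 on the log2 scale (SE 0.107, edgeR adjusted p = 0.227). Junb was at -0.42 (edgeR adjusted p = 0.344), Fos at 0.68 (edgeR adjusted p = 0.369), Jun at 0.27 (edgeR adjusted p = 0.409) and Egr1 at 0.16 (edgeR adjusted p = 0.777). A Junb response called in WT cells and not in KAT8-deficient cells was therefore not shown to differ between the genotypes. In the pairwise comparisons, as opposed to the interaction, an exact permutation test of 2 against 2 libraries cannot go below p = 0.333 for a single gene.

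Egr2 (ENSMUSG00000037868, chr10:67535475-67542188, plus strand), an Egr factor of macrophage differentiation, turned on 1 library. It had 18.6 and 77.1 CPM in KAT8-deficient R848 libraries, 78.2 and 77.4 CPM in WT R848 libraries, 88.4 and 82.9 CPM in untreated KAT8-deficient libraries and 96.0 and 92.1 CPM in untreated WT libraries. The low value rests on 394 reads, against 1636 reads in the other library of its group, and sampling error is small at both. Its neighbour Ado had 81.5 and 89.5 CPM in the same libraries. Of 10539 genes averaging over 100 counts, 18 (0.171%) were over 1.5 apart on the log2 scale between the 2 KAT8-deficient R848 libraries. Within the other groups 16 to 26 genes were. That cut is smaller than the gap of Egr2, and genes as far apart as Egr2 were not counted. With all libraries the R848 response in KAT8-deficient cells was -0.84 and the difference from WT cells under R848 -0.70 (edgeR adjusted p = 0.376), and neither passed. Without KAT8-deficient R848 replicate 1 these were -0.16 and -0.01, and without replicate 2 they were -2.21 (edgeR adjusted p = 0.000181) and -2.06 (edgeR adjusted p = 6.88e-05). In WT cells, where the libraries lay close together, Egr2 was at -0.27, and this passed edgeR only without KAT8-deficient R848 replicate 1 (adjusted p = 0.0253) or replicate 2 (0.0274), or with only the libraries compared (0.0407).

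Fosl1, Jund, Atf3 and Fosb passed edgeR's threshold in no comparison and under none of the 16 alternatives. Fosl1 (ENSMUSG00000024912, chr19:5447547-5455946, plus strand), which encodes Fra-1, had 10.1 and 12.2 CPM in KAT8-deficient R848 libraries, 14.6 and 13.2 CPM in WT R848 libraries, 11.9 and 10.4 CPM in untreated KAT8-deficient libraries and 9.78 and 14.1 CPM in untreated WT libraries. Jund (ENSMUSG00000071076, chr8:70698949-70700616, plus strand) had 133 and 145 CPM in KAT8-deficient R848 libraries, 139 and 135 CPM in WT R848 libraries, 157 and 144 CPM in untreated KAT8-deficient libraries and 125 and 148 CPM in untreated WT libraries. Atf3 (ENSMUSG00000026628, chr1:191170296-191218039, minus strand) had 297 and 277 CPM in KAT8-deficient R848 libraries, 294 and 341 CPM in WT R848 libraries, 282 and 353 CPM in untreated KAT8-deficient libraries and 308 and 319 CPM in untreated WT libraries. In both genes every group overlapped at least one other. Fosb (ENSMUSG00000003545, chr7:19302696-19310051, minus strand) had 0.377 and 0.283 CPM in KAT8-deficient R848 libraries, 0.213 and 0.204 CPM in WT R848 libraries, 0.629 and 0.214 CPM in untreated KAT8-deficient libraries and 0.512 and 0.651 CPM in untreated WT libraries. At these depths 3 reads are worth 0.14 to 0.163 CPM. Gene positions are those of GENCODE M21 on GRCm38.

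Counting of opposite strands is not stated, so reads of overlapping antisense genes cannot be told apart from those of 5 members. Fosl1 shares 2767 bases with Ccdc85b, which was listed at 9.76 to 14.9 CPM, close to Fosl1 itself. Junb shares 351 bases with Prdx2 (113 to 133 CPM), and Prdx2 passed the threshold in none of the comparisons. Jun overlaps Junos (at most 2.25 CPM) and Jund overlaps Gm11175 (at most 1.09 CPM), both at low level. Atf3 shares 108 bases with the small RNA gene Gm24748.

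Likeness of pattern was measured for the 3 members of widest range, as the mean absolute difference of centred log2 CPM over the 8 libraries, among about 10016 genes averaging at least 5 CPM. Egr1 was followed most closely by Crb2 (0.0442), Loxl1 (0.0461) and B3gnt9 (0.064). Crb2 had 39.1 and 38.5 CPM in KAT8-deficient R848 libraries, 21.1 and 22.1 CPM in WT R848 libraries, 43.0 and 42.2 CPM in untreated KAT8-deficient libraries and 25.6 and 31.0 CPM in untreated WT libraries, the same order of groups as Egr1. The nearest genes to Fosb were Tcp11l2 (0.198), Zfp775 (0.199) and Gadd45g (0.206), and to Egr2 Rbm38 (0.275), Tgfbrap1 (0.303) and Ttc33 (0.311). These were several times farther away than those of Egr1. Fosb had only 4 to 12 reads in a library, and the range of Egr2 came from the single library at 18.6 CPM. The distances of the 3 members are therefore not on an equal footing.

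Of 20 other bZIP genes that can pair with AP-1 or share its sites, 6 rose and 3 fell with R848 in WT cells. Over all genes 6.94% rose and 6.7% fell. Under R848, 1 was higher (Maf) and 5 lower (Batf, Cebpb, Cebpd, Maff, Mafg) in KAT8-deficient than in WT cells. Over all genes 8.14% were higher and 5.47% lower. In untreated cells 2 were higher in KAT8-deficient cells (Cebpd, Maf), beside 2.91% of all genes. For R848 in KAT8-deficient cells 0 passed by edgeR, beside 0.634% of all genes, while DESeq2 called Maff and limma-voom called 0. There 5 had an unadjusted p under 0.05, beside 13.8% of all genes. In the interaction 1 passed by edgeR, beside 0.228% of all genes. Cebpd, a C/EBP factor of acute inflammation, had 21.9 and 23.0 CPM in KAT8-deficient R848 libraries, 34.0 and 35.9 CPM in WT R848 libraries, 22.5 and 19.7 CPM in untreated KAT8-deficient libraries and 14.6 and 16.3 CPM in untreated WT libraries. It rose by 1.18 with R848 in WT cells (SE 0.101, edgeR adjusted p = 0.000206), was at 0.09 in KAT8-deficient cells, and had an interaction of -1.09 (SE 0.142, edgeR adjusted p = 0.0295). Batf, an AP-1 partner that pairs with Jun proteins, had 11.5 and 12.02 CPM in KAT8-deficient R848 libraries, against 18.1 and 20.2 CPM in WT R848 libraries, and fell by 0.70 on the log2 scale (edgeR adjusted p = 0.00489). With 1 library left out, the count of 9 for R848 in WT cells became 5 to 8 (5 without WT R848 replicate 2), and the count of 6 under R848 became 3 to 6 (3 without KAT8-deficient R848 replicate 1 or either WT R848 library). Maf rose by 0.61 under R848 in KAT8-deficient against WT cells (edgeR adjusted p = 0.000866). Maff, a small Maf protein, had 18.5 and 23.0 CPM in KAT8-deficient R848 libraries, against 33.3 and 37.1 CPM in WT R848 libraries, and fell by 0.77 on the log2 scale (edgeR adjusted p = 0.0172). The Maff call was lost without KAT8-deficient R848 replicate 1 (edgeR adjusted p = 0.109), WT R848 replicate 1 (0.0602) or WT R848 replicate 2 (0.103). Cebpd was the only 1 of the 20 called for the interaction, and it lost that call without any single library other than KAT8-deficient R848 replicate 2 (edgeR adjusted p up to 0.120). In untreated cells the Cebpd call was lost without any 1 of the 8 libraries (edgeR adjusted p 0.0599 to 0.266), and also by DESeq2 (0.0789), by limma-voom (0.0534), with the replicate block (0.0665) and with only the libraries compared (0.102). The Maf call there was lost without any 1 of the untreated or WT R848 libraries (edgeR adjusted p 0.0515 to 0.155).

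**Figure D4:**
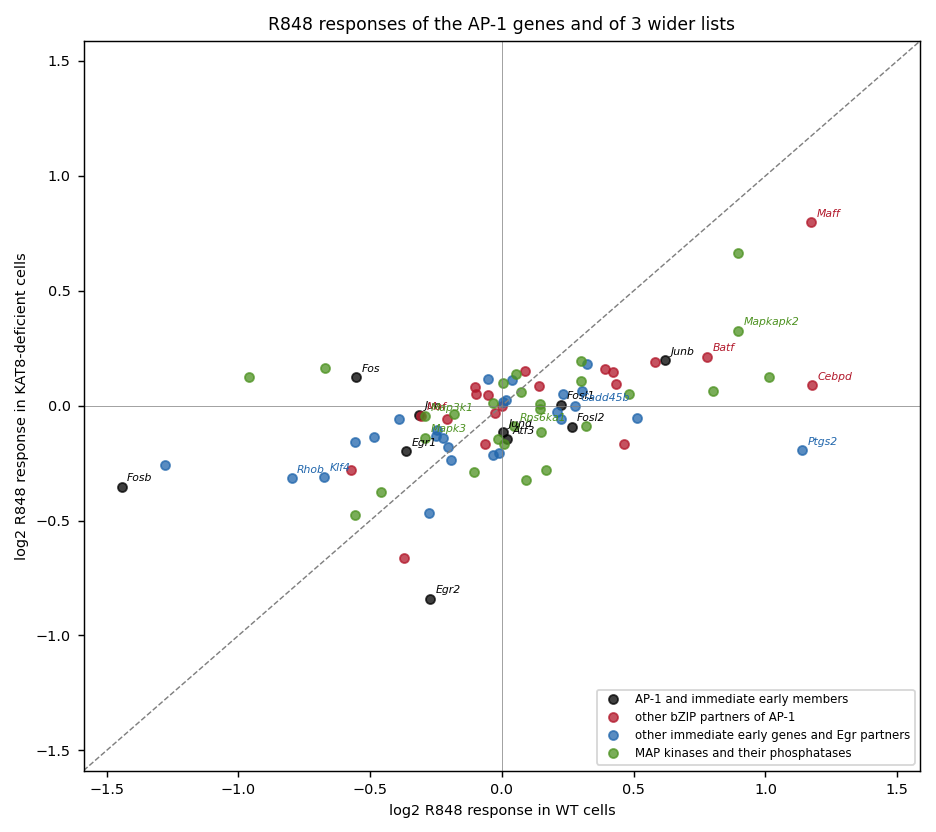
Log2 R848 response in WT cells (horizontal axis) against that in KAT8-deficient cells (vertical axis) for each gene of the 4 lists (points), with equal responses on the dashed line. Cebpd, at 0.09 in KAT8-deficient cells and 1.18 in WT cells, lies away from the line. Ptgs2, at -0.19 in KAT8-deficient cells and 1.14 in WT cells, lies farther from it. Several genes of low level, Fosb among them, also lie off the line.

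Of 26 other immediate early genes and Egr or serum response factor partners, 4 rose (Gadd45b, Ier3, Nab1, Ptgs2) and 5 fell (Ier5, Klf4, Mrtfa, Mrtfb, Rhob) with R848 in WT cells. Over all genes 6.94% rose and 6.7% fell. In KAT8-deficient cells 0 passed edgeR's threshold, beside 0.634% of all genes, while DESeq2 called Rhob and limma-voom called 0. There 6 had an unadjusted p under 0.05, beside 13.8% of all genes. Under R848, 3 were higher (Klf4, Mrtfa, Rhob) and 2 lower (Gadd45b, Ptgs2) in KAT8-deficient than in WT cells. Over all genes 8.14% were higher and 5.47% lower. In untreated cells 0 passed by edgeR or limma-voom, beside 4.27% of all genes by edgeR, and DESeq2 called Myc and Ptgs2. There 5 had an unadjusted p under 0.05, beside 20.3% of all genes. Ptgs2, the inducible cyclooxygenase, had 22.9 and 34.8 CPM in KAT8-deficient R848 libraries, 52.0 and 47.1 CPM in WT R848 libraries, 32.8 and 33.3 CPM in untreated KAT8-deficient libraries and 20.4 and 24.6 CPM in untreated WT libraries. It fell by 0.78 on the log2 scale in KAT8-deficient against WT cells under R848 (edgeR adjusted p = 0.0200), and its interaction of -1.33 did not pass (edgeR adjusted p = 0.0713). Klf4, a Krüppel-like factor of monocyte differentiation, had 28.2 and 27.2 CPM in KAT8-deficient R848 libraries, against 19.1 and 18.2 CPM in WT R848 libraries, and rose by 0.57 (edgeR adjusted p = 0.00386). Rhob, which encodes an endosomal GTPase, rose by 0.42 (edgeR adjusted p = 0.00905), and Gadd45b, a stress gene that binds MAP kinase kinases, fell by 0.31 on the log2 scale (edgeR adjusted p = 0.0174). The Rhob, Gadd45b and Ptgs2 calls under R848 were each lost without KAT8-deficient R848 replicate 1 (edgeR adjusted p = 0.0592, 0.116 and 0.0600), WT R848 replicate 1 (0.0679, 0.120 and 0.122) or WT R848 replicate 2 (0.0507, 0.0760 and 0.0597), and that of Ptgs2 also with only the libraries compared (0.0586). With 1 library left out, the count of 9 for R848 in WT cells became 3 to 9 (3 without WT R848 replicate 1), and the count of 5 under R848 became 1 to 6 (1 without either WT R848 library, 2 without KAT8-deficient R848 replicate 1). In the interaction 0 of the 26 passed edgeR's threshold, beside 0.228% of all genes, and 2 were called by DESeq2 (Ptgs2, Rhob). There 7 had an unadjusted p under 0.05, beside 11.4% of all genes.

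The last list held 28 MAP kinases, kinases upstream and downstream of them, and dual-specificity phosphatases. MAP kinases and their upstream kinases carry the signal to the AP-1 genes, and the phosphatases shut it off. With R848 in WT cells 5 of the 28 rose (Dusp4, Dusp16, Map3k8, Mapk11, Mapkapk2) and 2 fell (Dusp10, Map3k1). Over all genes 6.94% rose and 6.7% fell. In KAT8-deficient cells 0 passed edgeR's threshold, beside 0.634% of all genes, while DESeq2 called Map3k8 and Mapkapk2, and limma-voom called 0. There 6 had an unadjusted p under 0.05, beside 13.8% of all genes. Mapkapk2, the p38 effector MK2, had 367 and 419.6 CPM in KAT8-deficient R848 libraries, against 611 and 598 CPM in WT R848 libraries, and fell by 0.62 on the log2 scale (edgeR adjusted p = 0.00109). Its interaction of -0.57 did not pass (edgeR adjusted p = 0.0678). Dusp4 and Rps6ka1 were also lower and Map3k1 and Mapk3 higher in KAT8-deficient than in WT cells under R848, with Rps6ka1, a ribosomal S6 kinase, at -0.41 (edgeR adjusted p = 0.0124) and Map3k1, an upstream kinase of the JNK branch, at 0.29 (edgeR adjusted p = 0.0316). Over all genes 8.14% were higher and 5.47% lower in that comparison. The Rps6ka1 and Map3k1 calls were lost without KAT8-deficient R848 replicate 1 (edgeR adjusted p = 0.0865 and 0.162), WT R848 replicate 1 (0.0591 and 0.193) or WT R848 replicate 2 (0.0829 and 0.0818), and that of Map3k1 also by DESeq2 (0.0553) and with only the libraries compared (0.0534). With 1 library left out, the count of 7 for R848 in WT cells became 4 to 9 (4 without WT R848 replicate 1), and the count of 5 under R848 became 2 to 7 (2 without either WT R848 library, 3 without KAT8-deficient R848 replicate 1). Mapk3, which encodes ERK1, had 315 and 376 CPM in KAT8-deficient R848 libraries, 159 and 174 CPM in WT R848 libraries, 391 and 370.0 CPM in untreated KAT8-deficient libraries and 198 and 209 CPM in untreated WT libraries. It rose by 1.05 under R848 (edgeR adjusted p = 0.000494) and by 0.90 in untreated cells (edgeR adjusted p = 0.00268), where Dusp6, an ERK phosphatase, was the other gene called. Over all genes 4.27% passed in untreated cells. Gdpd3, which starts just downstream of Mapk3 on the strand and chromosome that also carry Kat8, was higher by 4.26 on the log2 scale under R848 and by 4.14 in untreated cells, and whether its change bears on the Mapk3 counts was not tested. For the interaction 0 of the 28 passed edgeR, beside 0.228% of all genes, while DESeq2 called Mapkapk2 and limma-voom called 0. There 7 had an unadjusted p under 0.05, beside 11.4% of all genes.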

How the data were processed

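Poly(A) RNA from 8 libraries in 4 groups was measured. Per the submitters' processing notes, HISAT2, StringTie 1.3.0, edgeR and build mm10 were used, in roles not given in the sources used here. The values are deposited raw counts per Ensembl gene, and the strand setting is not stated. Symbols and exon lengths came from GENCODE M21, which matched 34344 of 34745 identifiers. Counts were fitted with edgeR 4.0.16 (R 4.3.3; filterByExpr, TMM, quasi-likelihood F test, all 8 libraries, 4 residual degrees of freedom), and p-values were adjusted by the Benjamini-Hochberg method over all 14040 genes tested. The common biological coefficient of variation was 0.0956. CPM use TMM-scaled library sizes. Each SE was taken as the size of the log2 fold change over the root of its F statistic. A floor of 3 counts covers counting error only. The scripts were tested on simulated data.

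DESeq2 1.42.0, limma-voom (limma 3.58.1), other scaling, filtering, robust and blocked fits and 8 left-out libraries were the alternatives. The 10 genes and the other lists were chosen with earlier results of these data known. In the other 3 lists, up to 4 genes each were named with values by the smallest adjusted p in the interaction or for KAT8 deficiency under R848. One further bZIP gene was left out of that list and its counts and is not reported here.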

Additional observations from a re-analysis of the deposited data

Results flagged for a closer look

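Cebpd responded to R848 differently in KAT8-deficient and WT cells by a test of the difference itself. The Cebpd interaction was -1.09 on the log2 scale (edgeR adjusted p = 0.0295). Its adjusted p ran from 8.75e-05 to 0.0529 over the other tools and settings, with the upper end under the replicate block, and from 0.0202 to 0.120 over left-out libraries. Leaving out KAT8-deficient R848 replicate 2 kept it past the threshold, and leaving out any other library did not. It did not change sign in any alternative.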

How the results depend on the processing

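The number of the 10 genes past the adjusted threshold was 0 for R848 in KAT8-deficient cells, 2 for R848 in WT cells, 3 for KAT8 deficiency under R848, 2 for KAT8 deficiency in untreated cells and 0 for the interaction. With each library left out in turn, these counts ranged over 0 to 1, 1 to 3, 1 to 3, 0 to 2 and 0 to 1. With only the libraries compared in the fit, the count in untreated cells was 0. The replicate numbers share no origin in the labels, and same-numbered libraries did not deviate together (correlations -0.06 to 0.048). With the replicate number as a block the counts were 0, 2, 3, 2 and 0, unchanged. Without KAT8-deficient R848 replicate 1 the Egr2 interaction changed sign, to 0.13 (edgeR adjusted p = 0.792), and without replicate 2 it was -1.93 (edgeR adjusted p = 0.000708). Of 50 gene and comparison pairs, 36 passed in no setting and 7 passed only in an alternative. In WT cells these were Fos for R848 by DESeq2 (adjusted p = 0.0185), without the filter (0.0300) and with only the libraries compared (0.0336), Fosl2 with robust estimation (0.0396), and the Fos, Egr1 and Egr2 cases given above. The other 3 were Egr2 without KAT8-deficient R848 replicate 2. With 2 libraries per group and 4 residual degrees of freedom, single libraries decide most of these calls, and Fosb at 4 to 12 reads could show only very large differences. Over all genes, calls for R848 in KAT8-deficient cells numbered 89, against 274 without the filter, 238 by DESeq2, 158 with robust estimation and 22 with only the libraries compared. For the interaction they numbered 32, against 245, 231 and 148 in the first 3 of these settings, and in untreated cells 600, against 384 with only the libraries compared. With 1 library left out, the calls over all genes ranged over 2 to 186 for R848 in KAT8-deficient cells, 858 to 1826 for R848 in WT cells (1916 with all libraries), 784 to 1894 for KAT8 deficiency under R848 (1911 with all libraries), 66 to 606 in untreated cells and 6 to 208 for the interaction, so the background shares move with single libraries too. Causes were not tested.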
